A study of Mus musculus with 20 samples.

Results

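When the ATAC-seq peaks of 4 normal mouse mammary cell types were merged along chromosomes 1 to 19 and X, 27947 of the 128797 resulting regions (21.7%) held a peak of every type. These shared regions were chosen by that rule alone, so the presence of the 4 peaks is a choice and not a finding. ATAC-seq uses the Tn5 transposase to insert sequencing adapters into accessible DNA, and a peak is a stretch where insertions pile up over the background. The 4 types were fMaSC (fetal mammary stem cells) sorted from embryos at embryonic day 18, and basal, luminal progenitor (LP) and mature luminal (ML) cells sorted from adults. All came from wild-type C57BL6J mammary glands, with 2 samples per type, and each peak list combines both samples of a type. Each list was called at a q-value of 0.001, per the list names. Luminal cells of PY230, a mouse mammary tumour line transplanted into syngeneic C57BL6J mice, gave a separate readout from 3 SOX10-high and 3 SOX10-low samples. The markers used for sorting and the adult ages are not given in the labels. The lists carry no counts, so the depth behind each list is unknown and no spread between samples can be given. Regions are given by mm9 position. No gene positions in mm9 were used here, so no gene is assigned and the labelled cell types were not checked against marker genes.

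In mammals, DNA that is accessible in many cell types often lies at promoters of broadly used genes and at sites bound by the insulator protein CTCF, whereas sites open in 1 cell type more often act as distal enhancers. In the mammary ducts, contractile basal cells lie outermost. Luminal progenitors are proliferative cells of the inner layer and can give rise to milk-secreting cells, and mature luminal cells of the same layer sense hormones. SOX10, a transcription factor best known from the neural crest, is also expressed in part of the mammary epithelium. In the sections below, a region is called closed or open in the tumour when it overlaps, by 1 bp or more, a region the authors listed as closed or open in SOX10-high luminal PY230 cells. In the labels, the open list is attached to the SOX10-high samples and the closed list to the SOX10-low samples. They do not state how the groups were compared. Both lists came from other libraries than the normal peaks and had no part in choosing the shared regions.

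The first question was what a shared region looks like. Shared regions covered 42.1 Mb, or 41.8% of the 101 Mb covered by any list. Their width had a median of 1332 bp, with 5% under 566 bp and 5% over 2988 bp, and ranged from 271 to 26273 bp. By comparison, the median width was 815 bp where 3 types had a peak, 628 bp where 2 had one and 375 bp where 1 had one. A longer region can join more peaks, so width and sharing are linked by the way the regions were built. In 22712 shared regions (81.3%) each list contributed exactly 1 peak. Bases covered by all 4 lists at once amounted to 21.2 Mb, or 50.3% of the length of the shared regions. The stretch common to all 4 lists had a median of 600 bp per region. In 25141 regions (89.96%) it was a single stretch, in 2519 it was broken into 2 or more (at most 14), and in 287 (1.03%) no base was covered by all 4 lists. Those 287 regions are chains of peaks that overlap their neighbours without meeting at 1 point, so the label "accessible in all types" holds for the region and not for any base of it.

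Basal peaks set the left edge of most shared regions, and likewise the right edge, while regions with both edges from basal peaks were not counted. The basal list was also the longest in bases, with 70.4 Mb against 48.1 Mb for fMaSC, 47.5 Mb for LP and 43.9 Mb for ML. Basal peaks covered a median of 97.6% of a shared region, against 79.8% for LP, 70.2% for ML and 65.6% for fMaSC peaks. The left edge of the region came from a basal peak in 56.1% of cases and the right edge in 56.3%, while fMaSC peaks set 10.3% and 10.1%. Basal peaks inside shared regions had a median width of 1185 bp, against 522 bp for basal peaks elsewhere. The same widths were 721 and 360 bp in fMaSC, 909 and 441 bp in LP cells, and 786 and 442 bp in ML cells. Fetal peaks were the most fragmented, as 87.4% of shared regions held a single fMaSC peak, compared with 92.7% for ML, 92.8% for LP and 97.4% for basal peaks.

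**Figure D1:**
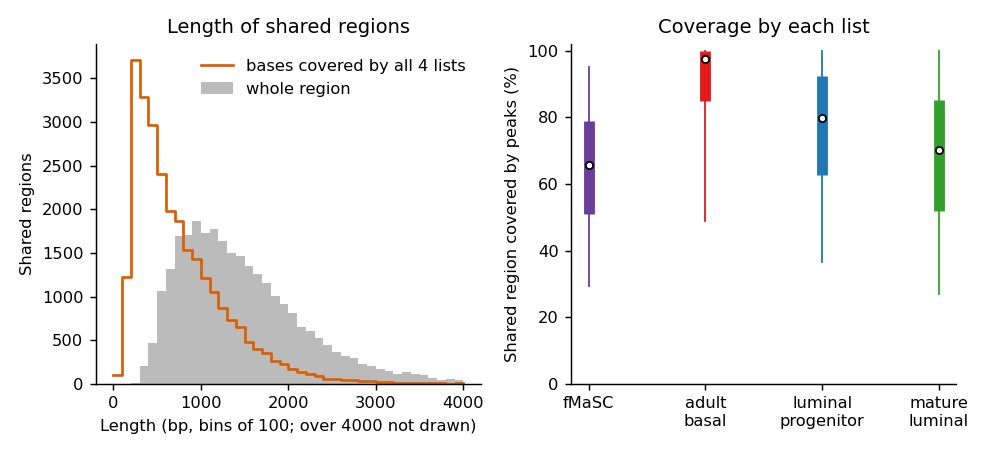
Left, number of shared regions by length in bp, for the whole region (grey bars) and for its bases covered by all 4 peak lists (line). Right, percentage of each shared region covered by the peaks of each type, with the median (point), the middle 50% (thick line) and the range from the 5th to the 95th percentile (thin line); basal peaks cover a median of 97.6% and fMaSC peaks 65.6%.

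The next question was how strong the shared peaks are. The authors gave each peak a fold, its enrichment over the peak caller's own background, which ranks peaks within a list but cannot be set against another list. Shared regions took in 40.1% of fMaSC peaks, 35.8% of basal, 50.3% of LP and 49.1% of ML peaks. Among the weakest 10% of each list the share was 17.1% in fMaSC, 7.43% in basal cells, 17.2% in LP cells and 27.6% in ML cells. Among the strongest 10% it was 89.0%, 90.1%, 96.5% and 86.1% in the same order. Of the 1000 strongest peaks per list, 971 fMaSC, 979 basal, 994 LP and 943 ML peaks lay in a shared region. As a share of its list, ML thus had the fewest of its strongest 10% of peaks, and the most of its weakest 10%, inside shared regions. These shares describe values that also decided membership, so they carry no test.

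**Figure D2:**
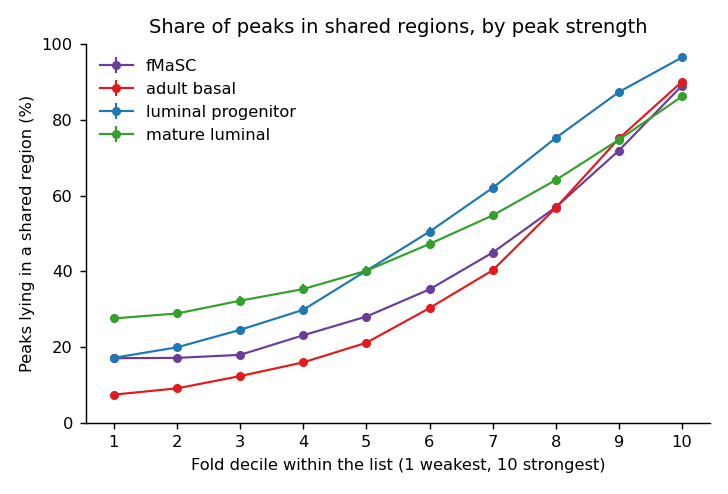
Percentage of peaks that lie in a shared region (vertical axis) for each decile of a list ordered by the authors' fold (horizontal axis, weakest to strongest), one line per cell type, with exact 95% binomial intervals that are mostly smaller than the points. Basal peaks run from 7.43% in the weakest to 90.1% in the strongest decile.

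To place all 4 types on 1 scale, the strongest peak of each list in a shared region was expressed as its percentile among all nuclear peaks of that list. Its median was 77.1 for fMaSC, 78.3 for basal cells, 73.1 for LP cells and 69.6 for ML cells. The underlying folds, each on its own list's scale, had medians of 13.2 (middle 50% from 8.61 to 19.5) in fMaSC, 15.1 (9.92 to 20.5) in basal cells, 10.6 (7.27 to 15.4) in LP cells and 12.2 (7.72 to 18.2) in ML cells. In 15462 shared regions (55.3%) all 4 peaks were at or above the median of their list, in 2980 (10.7%) all 4 were in the top 10%, and in 1104 (3.95%) all 4 were below the median. The weakest of the 4 percentiles belonged to ML cells in 41.4% of regions, to LP cells in 23.7%, to fMaSC in 20.5% and to basal cells in 14.4%. ML accessibility was therefore the most frequent weak point of a shared region by this measure, although list lengths differ and shift the percentiles. Across the 27947 regions, the percentiles of LP and ML cells had a Spearman rho of 0.73, as did those of fMaSC and basal cells. The lowest value was 0.57, between fMaSC and ML cells. These coefficients are descriptive, as regions are not independent and all libraries share mappability and sequence composition.

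Regions near the limit of the rule had low values in 1 list. In 2270 shared regions (8.12%) at least 1 of the 4 peaks was in the lowest 10% of its list. Among the lowest was a region on chromosome 7 from 100227682 to 100230285, chosen after its values were seen, with a percentile of 0.0219 in the ML list (a fold of 3.49) and percentiles of 95.8 in fMaSC, 94.97 in basal cells and 93.2 in LP cells. Just outside the rule lay 15995 regions with peaks of 3 types. The missing peak was ML in 8330 of them, fMaSC in 3205, LP in 2464 and basal in 1996. A peak of the missing type lay within 500 bp in 242, 176, 75 and 98 of these regions in the same order, so most were not split from a neighbour by a short gap.

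The 5 shared regions whose weakest percentile was highest had high folds in every type. No filter for repeats or other artefact-prone stretches was applied here. Whether copy number or mappability raised the folds and widths of the regions named in this paragraph was not tested. On chromosome 17, a region from 39979855 to 39985862 had folds of 81.3 in fMaSC, 73.7 in basal cells, 59.2 in LP cells and 87.9 in ML cells. Nearly its whole length was common to all 4 lists, with 5996 of 6008 bp. On chromosome 2, a region from 98506310 to 98507580 had folds of 64.3, 55.2, 61.1 and 61.0 in the same order of types. A neighbouring region from 98502297 to 98503226 had folds of 65.3, 47.2, 48.6 and 55.3. The other members of this group were on chromosome 1 at 90170068 to 90175182 and on chromosome 17 at 21081025 to 21084443. None of the 5 was closed or open in the tumour. The widest shared region lay on chromosome 19 from 5821545 to 5847817 and joined 13 fMaSC, 7 basal, 7 LP and 3 ML peaks, with 17274 of its 26273 bp common to all lists. The next widest were neighbours on chromosome 11, from 3053375 to 3074942 and from 3030662 to 3048880.

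Shared did not mean equal. In 19996 shared regions (71.5%) no list stood at least 20 percentile points above or below all other 3, and in the remaining regions at least 1 list did. The most frequent departure was an ML peak below the other 3, in 3109 regions (11.1%). Next came fMaSC below the others in 1243 regions and basal above the others in 924. LP peaks stood above the others in 295 regions, the fewest of these 8 classes. The region with the largest ML lead, on chromosome 8 from 35287853 to 35288851, had a percentile of 95.6 in ML cells, against 7.90 in fMaSC, 23.7 in basal cells and 21.8 in LP cells. The largest LP lead, on chromosome 3 from 79655642 to 79657238, had a percentile of 98.6 in LP cells, against 20.5 in fMaSC, 17.3 in basal cells and 23.0 in ML cells. The largest basal lead, on chromosome 8 from 42142484 to 42143331, had a basal percentile of 83.0, against 16.2 in fMaSC, 13.7 in LP cells and 2.88 in ML cells. The largest fMaSC lead, on chromosome 13 from 4149746 to 4150291, had an fMaSC percentile of 76.4, against 7.49 in basal cells, 9.85 in LP cells and 8.40 in ML cells. The second largest leads were on chromosome 15 from 27871703 to 27872544 for ML cells (percentile 94.6, at most 23.7 elsewhere), on chromosome 15 from 5488842 to 5490189 for LP cells (88.9, at most 19.4), on chromosome 17 from 45921114 to 45922719 for basal cells (84.0, at most 17.8), and on chromosome 6 from 121423035 to 121423859 for fMaSC (92.7, at most 26.4). Both ML regions were closed in the tumour, and none of the LP, basal and fMaSC examples was closed or open. Both ML, both LP and both basal regions held a UAR of their own type, from lists described next. The fMaSC example on chromosome 6 held an fMaSC UAR, and the one on chromosome 13 did not.

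The authors' UAR and URR lists touched few shared regions. Taken over all types, UARs were rarer there than in all merged regions, and URRs about as frequent. These abbreviations are not expanded in the labels, and the lists are attached to the same normal samples as the peaks, so they are not independent of them. A UAR of any type lay in 1007 shared regions (3.60%, exact 95% binomial interval 3.39 to 3.83%) and a URR in 364 (1.302%, 1.17 to 1.44%), against 9.09% and 1.21% of all merged regions. Basal UARs lay in 674 shared regions (2.41%, against 4.80% of all merged regions), ML UARs in 271 (0.970%, against 2.96%), fMaSC UARs in 41 (0.147%, against 1.06%) and LP UARs in 21 (0.0751%, against 0.273%). ML URRs lay in 216 shared regions (0.773%, against 0.904%), fMaSC URRs in 110 (0.394%, against 0.220%), basal URRs in 24 (0.0859%, against 0.0660%) and LP URRs in 14 (0.0501%, against 0.0225%). Of the 9954 UARs, 9.90% lay in a shared region, and of the 1368 URRs 26.0%. Shared regions made up 21.7% of merged regions and 41.8% of their bases.

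Peak strength in these regions followed the list names. In shared regions with an ML UAR, the median percentile was 94.3 in ML cells, against 62.8 in LP cells, 47.0 in fMaSC and 42.7 in basal cells. In those with an ML URR it was 28.0 in ML cells and between 88.5 and 92.4 in the other types. Shared regions with a basal UAR had a median percentile of 87.3 in basal cells, against 61.8 in fMaSC, 55.7 in LP cells and 44.7 in ML cells. With an LP UAR the median was 92.9 in LP cells and at most 49.4 elsewhere. A UAR in a shared region usually touched the common part of it, as 632 of 658 basal UARs and 254 of 265 ML UARs overlapped bases covered by all 4 lists. These UARs had median widths of 2550 bp (basal) and 2000 bp (ML), against 1647 and 1158 bp for the shared regions they overlapped. A touch of 1 bp counted, so it gives no position within the region. The score the authors gave was lower for UARs in shared regions than for the rest of the same list, with a median of 823 against 1514 for ML and 727 against 1828 for basal UARs. The scale of these scores is not stated, so they rank regions only within a list.

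**Figure D3:**
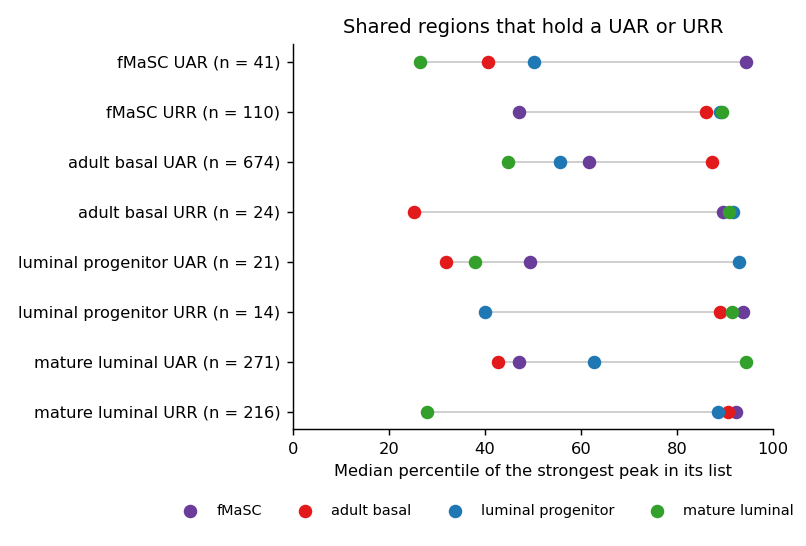
Median percentile of the strongest peak in its own list (horizontal axis) for shared regions that hold a UAR or URR of each type (rows, with the number of regions), one point per cell type. In UAR rows the named type lies to the right of the others, and in URR rows to the left.

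The question put to the tumour lists was whether sites open in all normal types change with SOX10 in luminal PY230 cells. Of the 27947 shared regions, 2048 were closed in SOX10-high cells (7.33%, exact 95% binomial interval 7.03 to 7.64%), against 11.0% of all merged regions. A further 113 were open (0.404%, 0.333 to 0.486%), against 1.88% of all merged regions. No shared region was both closed and open. Shared regions had a lower share than the other regions on 20 of 20 chromosomes for both lists. The closed share ranged from 3.20% on X to 9.97% on chromosome 14, and the open share reached at most 1.12%, on chromosome 18. The intervals cover counting error only, and neighbouring regions are not independent. When a tumour region had to lie in the shared region with at least 50% of its length, 6.27% were closed, against 6.74% of all merged regions. Narrow merged regions can rarely hold 50% of a tumour region, and shared regions were the widest, so this comparison mixes overlap with width. At this overlap, among regions of 1001 to 1500 bp with an ML peak, 7.70% of shared and 38.8% of other regions were closed. The other width classes with an ML peak had the same direction. With the 30000 strongest peaks of each list, 13759 shared regions were left, of which 3.29% were closed and 0.0654% open, against 15.5% and 2.02% of all merged regions in that setting.

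The contrast differed between regions with an ML peak and regions with an LP peak. Strata by a basal or fMaSC peak were not computed. An ML peak was held by 59121 of the 128797 merged regions, and by 13201 of the 14112 closed ones. Merged regions without an ML peak were thus closed less often than shared regions. A closed call was made in 7.33% of shared regions, against 35.8% (35.2 to 36.3%) of the 31174 other regions with an ML peak, beside 22.3% of all regions with such a peak. The shares were 23.5% with a peak in 2 further types, 33.7% with a peak in 1 further type and 42.8% with an ML peak alone. An open call was made in 0.404% of shared regions, against 5.43% (5.17 to 5.70%) of the 29289 other regions with an LP peak, beside 2.98% of all regions with such a peak. The crossed pairings gave smaller differences. Among regions with an ML peak, 0.404% (0.333 to 0.486%) of shared and 0.411% (0.343 to 0.488%) of other regions were open. Among regions with an LP peak, 7.33% (7.03 to 7.64%) of shared and 9.72% (9.38 to 10.1%) of other regions were closed, and with an LP peak alone 1.14% (0.890 to 1.44%) were closed, below the shared regions. For closed calls with an ML peak and open calls with an LP peak, the difference was present in each of the 5 width classes compared. Among regions of 1001 to 1500 bp with an ML peak, 8.47% of shared and 43.4% of other regions were closed. Among those of 501 to 1000 bp the closed shares were 11.3% and 44.0%. At an overlap of at least 50% of the tumour region, 6.27% of shared and 21.3% of other regions with an ML peak were closed.

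The closed share climbed with the strength of the ML peak outside the shared regions, and varied within narrower limits inside them. Where the ML peak was in the lowest 10% of its list, 3.29% of shared regions were closed, against 20.4% of regions with an ML peak alone. In the strongest 10%, 7.27% of 5380 shared regions were closed, against 67.8% of 432 regions with peaks in 3 types, 85.0% of 393 with peaks in 2 and 47 of 49 (95.9%, 86.0 to 99.5%) with an ML peak alone. Over the 10 steps the closed share of shared regions stayed between 3.29% and 9.67%.

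**Figure D4:**
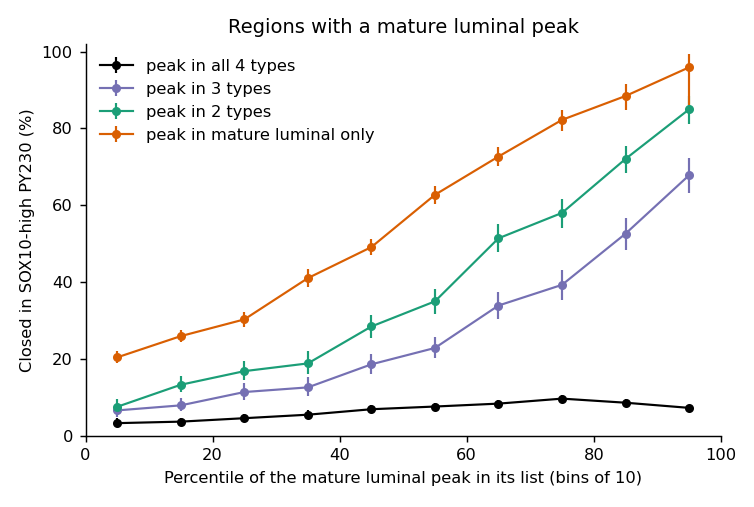
Percentage of regions closed in SOX10-high PY230 cells (vertical axis) by the percentile of the ML peak in its list (horizontal axis, bins of 10), for regions with peaks in all 4 types, in 3 or 2 types including ML, and in ML cells alone, with exact 95% binomial intervals. The line of shared regions stays between 3.29% and 9.67%, while that of regions with an ML peak alone reaches 95.9%.

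Within shared regions, the shares of closed and of open calls shifted in opposite directions with the balance between ML and LP peaks, although 1032 of the 2048 closed and 33 of the 113 open calls fell where the 2 were balanced. Where the ML percentile exceeded the LP one by over 20 points, 898 of 2365 regions (38.0%, 36.0 to 39.96%) were closed. This compared with 1032 of 20469 (5.04%, 4.75 to 5.35%) where the percentiles lay within 20 points, and 118 of 5113 (2.31%, 1.91 to 2.76%) where the ML one was over 20 points lower. Closing was more frequent with an ML excess than with a balance on 20 of 20 chromosomes, with shares of 24.1 to 49.6% and of 2.55 to 6.95%. Open calls ran the other way, with 77 of 5113 regions (1.51%, 1.19 to 1.88%) where the ML percentile was over 20 points lower, 33 of 20469 (0.161%, 0.111 to 0.226%) where the percentiles were balanced and 3 of 2365 (0.127%, 0.0262 to 0.370%) where it was over 20 points higher. In steps of the gap, the closed share reached 31.4% from 20 to 40 points, 49.6% from 40 to 60 points and 74.5% (66.6 to 81.4%) above 60 points. The open share was 5.96% (3.81 to 8.81%) in the 386 regions with a gap below -60 points. The gap uses the normal peaks only, and its threshold was chosen after earlier results of these lists were known. When lists were limited to their 30000 strongest peaks, the closed share above 20 points was 17.1%, and with peaks at or above their list's median 19.6%, against 3.29% and 4.10% of all shared regions so defined. The open share below -20 points was then 0.222% and 0.233%, against 0.0654% and 0.0831% of all shared regions so defined.

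**Figure D5:**
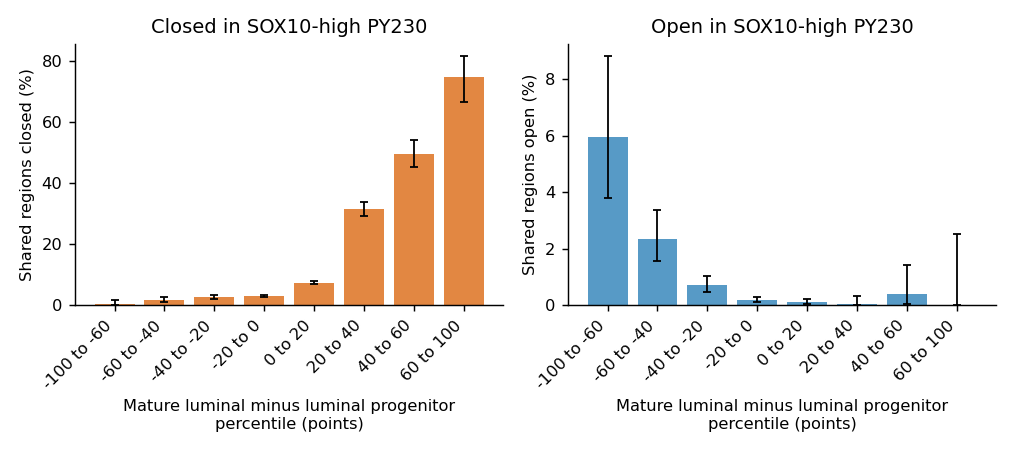
Percentage of shared regions closed (left) or open (right) in SOX10-high PY230 cells, by the ML minus LP percentile of the strongest peak, in points; bars are shares and error bars exact 95% binomial intervals. The closed share is 0.518% in the lowest and 74.5% in the highest class, and the open share is 5.96% in the lowest class; the vertical axes differ.

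The luminal pair gave the steepest of the 6 pairwise gaps for closing. Where the ML percentile led by over 20 points, 25.4% (23.7 to 27.1%) of regions were closed when the lead was over basal cells and 26.2% (24.7 to 27.8%) when it was over fMaSC, beside 38.0% when it was over LP cells. Where LP cells were over 20 points below basal cells, 15.4% of regions were closed, and where they were over 20 points above, 10.9% were, against 5.09% in between. For the fMaSC and basal pair, 14.5% were closed where basal cells led by over 20 points, 11.1% where fMaSC led and 5.58% in between. For pairs without ML cells, unequal regions thus had more closed calls than balanced ones on either side. With percentiles taken among shared regions this excess was smaller, down to 7.62% against 6.47% where fMaSC led basal cells. An ML deficit over 20 points did not raise the closed share. It was 2.31% against LP cells, 5.06% against basal cells and 4.42% against fMaSC, beside 5.04%, 5.70% and 5.20% in between. The luminal gap held at each width: 36.8% of regions up to 1000 bp, 39.8% of those of 1001 to 1500 bp, 37.2% of those of 1501 to 2000 bp and 41.2% of wider ones were closed with an ML excess over 20 points. With balanced luminal percentiles the same widths gave 7.21%, 6.67%, 2.96% and 2.88%.

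The classes in which 1 type stood apart from all others differed as well. ML peaks above all other 3 types by at least 20 points marked 601 shared regions, of which 327 (54.4%, 50.3 to 58.4%) were closed. An open call was seen in 0 of them, which allows up to 0.499%. LP peaks below all others marked 822 regions, of which 259 (31.5%, 28.3 to 34.8%) were closed. Closed shares were 17.5% where fMaSC was lowest, 15.1% where basal cells were lowest, 10.5% where basal cells were highest and 6.99% where fMaSC was highest. They were 2.71% where LP cells were highest and 2.16% where ML cells were lowest. The open share was 3.39% (10 of 295, 1.64 to 6.15%) where LP cells were highest and 1.45% (45 of 3109, 1.06 to 1.93%) where ML cells were lowest. In regions where no type stood apart, 5.10% were closed and 0.210% open.

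Regions that were strong everywhere were rarely in either tumour list. Of the 2980 shared regions in the top 10% of all 4 lists, 20 (0.671%, 0.410 to 1.03%) were closed and 1 (0.0336%) was open. Among all shared regions, 7.33% were closed and 0.404% open. When shared regions were ordered by their mean percentile and split into 5 equal groups, the closed share was 10.3% in the weakest group, 11.8%, 9.07% and 4.33% in the next 3, and 1.07% in the strongest. The strongest group was also the widest, with a median of 1980 bp against 782 bp in the weakest. It was the most even as well, with a median spread between the 4 percentiles of 5.96 points against 43.7 points. Of the 1104 regions below the median in all 4 lists, 7.43% were closed, near the share of all shared regions. Only 1 of these 1104 was open (0.0906%, 0.00229 to 0.504%), so a low open share was not particular to strong regions.

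Shared regions that held a UAR or URR split by list, beside 7.33% closed and 0.404% open among all shared regions. The closed and open shares of other merged regions with a UAR or URR were not computed. Whether the shares below are particular to shared regions was therefore not tested. With an ML UAR, 172 of 271 (63.5%, 57.4 to 69.2%) were closed. None of the 271 was open, which allows up to 1.11%. With an LP URR, 11 of 14 (78.6%, 49.2 to 95.3%) were closed. With a basal UAR, 61 of 674 (9.05%, 6.99 to 11.5%) were closed and 4 open. Where an ML URR was present, 2 of 216 (0.926%, 0.112 to 3.30%) were closed and 12 (5.56%, 2.90 to 9.50%) open. Where an LP UAR was present, 3 of 21 (14.3%, 3.05 to 36.3%) were open and 0 closed, which also allows up to 14.3%. Of the 2048 closed shared regions, 1790 held neither a UAR nor a URR, and 91 of the 113 open ones held neither. Most shared regions held neither, with 26579 of 27947. Among those 26579, 6.73% were closed and 0.342% open, below the shares of all shared regions.

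Most closed and open calls touched the common part of shared regions. Of the 2034 closed tumour regions that overlapped a shared region, 1983 (97.5%) overlapped bases covered by all 4 lists, as did 105 of 113 open ones (92.9%). A touch of 1 bp counted, and these tumour regions had median widths of 1400 bp (closed) and 2100 bp (open). The shared regions they overlapped had median widths of 1068.5 and 1152 bp, so a touch gives no position within them. These 2034 were 13.5% of the 15108 closed regions, and the 113 were 3.52% of the 3208 open regions. Their scores had a median of 81.1 against 136 for the other closed regions, and of 58.5 against 44.1 for the other open regions, on the authors' unstated scale. The closed region of highest score in a shared region reached across 2 neighbours on chromosome 11, from 86390443 to 86391989 and from 86392161 to 86397359. The first had percentiles of 79.96 in fMaSC, 70.5 in basal cells, 43.8 in LP cells and 70.5 in ML cells, and the second had percentiles of 41.9, 69.0, 43.8 and 89.2 in the same order. A further one on chromosome 9 from 54984039 to 54985210 had a percentile of 92.9 in ML cells, and of 7.90 in fMaSC, 66.6 in basal cells and 21.8 in LP cells. The open region of highest score in a shared region lay on chromosome 15 from 26823822 to 26826054, with percentiles of 95.4 in fMaSC, 98.9 in basal cells, 95.2 in LP cells and 11.9 in ML cells, and it also held an ML URR. The next were on chromosome 4, at 9264251 to 9265140 and at 62874839 to 62878629, where the ML percentiles were 35.4 and 53.7. The third closed example, on chromosome 9 from 15513050 to 15515332, had percentiles of 74.8 in fMaSC, 94.97 in basal cells, 90.8 in LP cells and 94.1 in ML cells.

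Along the genome, the proportion of merged regions that were shared varied from 19.0% on chromosome 12 to 25.8% on chromosome 7, with 22.7% on X. The median distance from a shared region to its nearest neighbour was 11760 bp, and 12806 shared regions (45.8%) had another within 10 kb. The densest windows of 1 Mb held 76 and 72 shared regions side by side on chromosome 10, at 80100001 to 81100000 and at 79100001 to 80100000. A further window, at 19500001 to 20500000 of chromosome 7, held 74. Of these shared regions, 2, 3 and 1 were closed in the same order of windows, and 0 were open. The longest interval without a shared region ran over 8698227 bp on X from 23401356, and held 5 merged regions.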

How the data were processed

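Nuclei of sorted cells were transposed with Tn5 and sequenced as paired ends, per the labels' protocols. Without giving roles or an order, the submitters' processing notes list MACS2 2.1.1, Bowtie 0.12.8, SICER, SAMtools 1.3.1, FastQC and bedtools 2.20.1, with the mm9 build. The 4 deposited peak lists give a fold enrichment ratio per peak, at a q-value of 0.001 per their names, and the authors combined both samples of a type in each. The 8 UAR and URR lists and the 2 PY230 lists give a deposited score of unstated scale, on a grid of 100 bp, and some scores are infinite. Depth is unknown, since the lists hold no counts.

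Peaks on 20 chromosomes that overlapped or touched were merged, leaving out chrM, and an overlap of 1 bp counted. Lists were compared by the percentile of a fold within its own list, folds are printed only as values of their own list, and the strongest peak of a list stood for it in a region. Shares carry exact (Clopper-Pearson) 95% binomial intervals that cover counting error only, and a count of 0 allows a share of up to 3 counts of the total. No test over samples was possible. The merging and overlap steps were tested on simulated intervals. The regions, lists and thresholds were chosen with earlier results of these data known. Regions were named as the 5 with the highest weakest percentile, the 3 widest, the 2 largest leads per list, the 3 closed and 3 open ones of highest score, the 3 densest windows of 1 Mb and the longest interval without a shared region. Python 3.11.15, numpy 2.4.6, scipy 1.17.1, pandas 2.3.3, matplotlib 3.10.9 and bedtools 2.31.1 were used. Gene starts, sequence motifs and gene lists were not analysed here, since no genome or annotation of mm9 was used. The other PY230 and C3-1 samples were not analysed here.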

Additional observations from a re-analysis of the deposited data

How the results depend on the processing

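No paired analysis was possible because each list combines both samples of a type, and no replicate could be left out. Planned counts of gene starts, sequence composition, motifs and gene lists were not run, as no mm9 annotation was used. Of 51 alternative values, 29 kept their direction and size. The number of shared regions was 27947, against 13759 with the 30000 strongest peaks of each list, 15645 with peaks at or above their list's median fold, and 15716 where each list had to cover 50% of the region (closed and open shares were not computed for these 15716). With the strongest 30000 and with peaks at or above the median, the closed share was 3.29% and 4.10%, beside 15.5% and 13.5% of all merged regions, and the open share was 0.0654% and 0.0831%, beside 2.02% and 1.99%. In the unchanged 27947 regions, requiring 50% of the tumour region inside gave 6.27% closed and 0.233% open, beside 6.74% and 0.626% of all merged regions. Joining peaks within 500 bp gave a closed share of 7.66%. Shared regions lay below all merged regions in 8 of 8 settings for each list. The alternatives for the luminal gap were added after the data were seen. With an ML excess, the closed share was 17.1% with the strongest 30000, 19.6% with peaks at or above the median, 33.2% with 50% of the tumour region inside, 29.5% with percentiles taken among shared regions and 32.4% with mean folds. With an ML deficit, the open share was 0.222%, 0.233% and 0.958% in the first 3 of these. Both stayed above all shared regions in 10 of 10 settings. With the mean of a list's peaks, median percentiles were 73.1 in fMaSC, 71.4 in LP cells and 66.6 in ML cells. With 50% of a UAR required inside, 8.05% of UARs lay in shared regions. The cause of these shifts was not tested.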

Other observations

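Shared regions that lay far from any other had more calls in the tumour lists than those with a close neighbour. Of the 1658 shared regions over 100 kb from any other, 165 (9.95%) were closed in SOX10-high PY230 cells and 26 (1.57%) were open. Of the 12806 with another within 10 kb, 849 (6.63%) were closed and 30 (0.234%) open. Among all shared regions 7.33% were closed and 0.404% open. All merged regions had 11.0% and 1.88%, above the shares of the distant shared regions. The distant and the close groups had median widths of 1284 and 1311 bp, and medians of their mean percentile of 68.3 and 69.9. The difference was not tested, since no replicate lists were used.

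The 287 shared regions without a base common to all 4 lists had more calls than all shared regions (7.33% closed, 0.404% open). Of the 287, 36 were closed (12.5%, exact 95% binomial interval 8.94 to 16.9%) and 5 open (1.74%, 0.568 to 4.02%). Both intervals include the shares of all merged regions, 11.0% closed and 1.88% open. In regions with 2 or more common stretches, 125 of 2519 (4.96%, 4.15 to 5.88%) were closed and 4 open (0.159%).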
